A study of Bos taurus with 36 samples.

Results

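The genes described here are those of de novo fatty acid synthesis in the bovine mammary gland: ACSS1 and ACSS2, which activate acetate to acetyl-CoA in mitochondria and in the cytosol, ACACA, the acetyl-CoA carboxylase that makes malonyl-CoA, FASN, the fatty acid synthase, SCD, the desaturase that places a double bond in stearate, and SREBF1, which encodes the transcription factor SREBP-1. They were taken as every probe set whose single gene symbol in the array annotation is 1 of these 6, which gave 11 of the 24128 probe sets on the array. SREBF1 had 4 probe sets, ACACA and ACSS1 had 2 each, and FASN, ACSS2 and SCD had 1 each. All 11 had a mean of at least 5 on the log2 scale, the level under which signals lie near background. Values of a gene are those of its probe set with the highest mean over the 36 arrays unless another probe set is named.

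The lactating udder of ruminants builds the short and medium chains of milk fat from acetate and ketone bodies supplied by the blood rather than from glucose. Acetate is activated by the acetyl-CoA synthetases, carboxylated by ACACA, extended by FASN in repeated steps, and partly desaturated by SCD. SREBP-1 is held at the endoplasmic reticulum, is cut free in the Golgi, and then activates lipogenic promoters such as those of FASN and SCD, so that its control lies largely in processing of the protein.

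Mammary biopsies came from 6 multiparous Holstein cows of which the right side of the udder was milked 4 times daily (4×) and the left side 2 times daily (2×) from day 1 to day 21 of lactation, and both sides 2× thereafter. Both sides were sampled on days 21, 23 and 40, a few hours after a milking of both sides, with 1 GeneChip Bovine Genome Array for each biopsy, so that each of the 6 groups (4× or 2× by day) held 6 arrays. The 4× gland was always the right one, so side and milking cannot be told apart, and day 23 biopsies were of fore glands whereas those of days 21 and 40 were of rear glands, so day 23 and gland position cannot be told apart either. Differential expression is the 4× value minus the 2× value of the same cow and day, on the log2 scale, and the number of arrays limits its precision. These are biopsies of whole tissue, in which fewer cells of a type and less RNA per cell cannot be told apart. In sections of biopsy tissue the study counted epithelial and stromal cells and reported no effect of milking or day on their proportions.

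The array of the 2× gland of cow 1 on day 21 stood apart from the others. Its median correlation with the other arrays was 0.950, against 0.980 to 0.990 for the rest, and 1803 probe sets lay more than 1 log2 unit from the mean of the other 2× glands of that day, against at most 219 in any of those. It was the lowest of the 36 arrays for 10 of the 11 probe sets of these genes, and for 17.4% of all probe sets. The markers of secretory epithelium (caseins, LALBA, PAEP, ELF5, XDH, BTN1A1 and GLYCAM1, 10 of 11 measured) averaged 13.69 there and 13.95 to 14.13 in the other 5 groups. By this list mean all 35 other arrays were higher. Within the list XDH (12.52) and BTN1A1 (12.61) lay well under the means of the other 2× glands of that day (13.23 and 13.47). PAEP (14.69) lay above that mean (14.62), and LALBA (14.40) was not the lowest of the 36 arrays. The general epithelial markers (EPCAM, KRT8, KRT18, KRT19 and CDH1; 5 of 5 measured) averaged 10.23 there, above the 8.48 to 9.74 of the other 5 groups. The mean of the adipocyte markers (8 of 10 measured) was at its lowest there, at 6.19, and 4 of the 8 (ADIPOQ, LEP, PCK1 and CIDEC) were dim in the whole series. RETN of that list went the other way, at 5.87 against a mean of 5.65 in the other 2× glands of that day. The fibroblast list was lower on only 1 other array. For the myoepithelial, endothelial and leukocyte lists 3, 6 and 5 other arrays were higher. Members of these 4 lists went opposite ways there. CD68 (7.51), CSF1R (8.52) and ITGB2 (8.58) were at their highest of the 36 arrays, and CD14 (8.52) at its lowest. KRT5 (13.05) and PECAM1 (9.46) were also at their highest. CNN1 (8.94), TEK and the dim KDR lay under the means of the other 2× glands of that day. LUM (6.61) and COL3A1 (9.71) were at their lowest, whereas DCN lay above that mean. Secretory markers were bright in every biopsy, in keeping with the label of lactating mammary tissue, and log2 array values hold no zeros. The part of these shifts in the results below was not tested. Values without cow 1 are given beside those that rest on it.

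The acetate-activating enzymes set the supply of substrate. On day 21 ACSS2 ranged from 10.22 to 12.10 with a median of 11.83 in 2× glands, and from 11.59 to 12.33 with a median of 12.03 in 4× glands. On day 23 its lowest, median and highest values were 11.64, 12.36 and 12.61 in 2× glands, and 11.52, 12.35 and 12.82 in 4× glands. On day 40 they were 11.66, 12.22 and 12.52 in 2× glands, and 11.74, 12.13 and 12.48 in 4× glands. The 2× and 4× groups overlapped on each day, and the value of 10.22 belonged to cow 1.

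ACSS1, the mitochondrial enzyme, ranged on day 21 from 9.92 to 11.26 with a median of 11.16 in 2× glands and from 10.88 to 11.31 with a median of 11.27 in 4× glands. On day 23 the lowest, median and highest values were 10.84, 11.34 and 11.53 in 2× glands, and 10.90, 11.32 and 11.58 in 4× glands. By day 40 they stood at 10.82, 11.17 and 11.27 in 2× glands, and 10.66, 11.05 and 11.20 in 4× glands. Cow 6 was the lowest of the 6 cows in 5 of these groups, and cow 1 was the lowest in 2× glands on day 21. The further ACSS1 probe set read 9.52 in the 2× gland of cow 1 on day 21 and 9.81 to 10.96 elsewhere.

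ACACA catalyses the committed step. On day 21 it ranged from 7.74 to 9.24 with a median of 9.02 in 2× glands and from 8.91 to 9.42 with a median of 9.15 in 4× glands. On day 23 the lowest, median and highest values were 8.83, 9.26 and 9.62 in 2× glands, and 8.83, 9.02 and 9.37 in 4× glands. Day 40 gave 8.63, 8.87 and 9.25 in 2× glands, and 8.81, 9.09 and 9.25 in 4× glands. Cow 1 held both the lowest 2× value of day 21 and the highest of day 23. The further ACACA probe set spread more widely, from 7.54 to 9.43 over 35 arrays and 6.52 in the 2× gland of cow 1 on day 21.

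FASN, which carries the whole chain-building cycle in 1 protein, varied little. On day 21 it ranged from 12.28 to 12.99 with a median of 12.88 in 2× glands and from 12.87 to 13.11 with a median of 12.98 in 4× glands. On day 23 the lowest, median and highest values were 12.91, 13.01 and 13.23 in 2× glands, and 12.87, 12.94 and 13.08 in 4× glands. On day 40 they read 12.82, 12.91 and 13.15 in 2× glands, and 12.85, 12.95 and 13.08 in 4× glands. Over the 35 arrays other than the 2× gland of cow 1 on day 21, the SD of FASN was 0.10.

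SCD was as even. On day 21 it ranged from 11.93 to 13.07 with a median of 12.95 in 2× glands and from 12.86 to 13.22 with a median of 13.07 in 4× glands. On day 23 the lowest, median and highest values were 12.95, 13.10 and 13.19 in 2× glands, and 12.96, 13.09 and 13.30 in 4× glands. On day 40 they came to 13.05, 13.06 and 13.33 in 2× glands, and 12.88, 13.08 and 13.25 in 4× glands. Its SD over the same 35 arrays was 0.12. The probe sets of FASN and SCD were each brighter than 99.7% of those tested, and processing of the arrays can compress differences of bright probe sets. The part of this in their evenness was not tested.

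SREBF1 encodes the transcription factor of the set. On day 21 SREBF1 ranged from 9.45 to 10.25 with a median of 9.90 in 2× glands. In 4× glands it ranged from 9.71 to 10.52 with a median of 9.94. On day 23 the lowest, median and highest values were 9.53, 10.08 and 10.82 in 2× glands, and 9.36, 10.07 and 10.80 in 4× glands. On day 40 they were 9.79, 9.97 and 10.30 in 2× glands, and 9.43, 9.96 and 10.58 in 4× glands. Both glands of cow 1 were the highest on day 23, and SREBF1 was the gene whose value in the 2× gland of cow 1 on day 21 was not the lowest of all arrays, since 2 others were lower. By level, the second and the third of its probe sets followed the first across 36 arrays (r = 0.78 and 0.75), whereas the fourth and dimmest, which ran from 5.23 to 6.20, did not (r = -0.29).

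**Figure D1:**
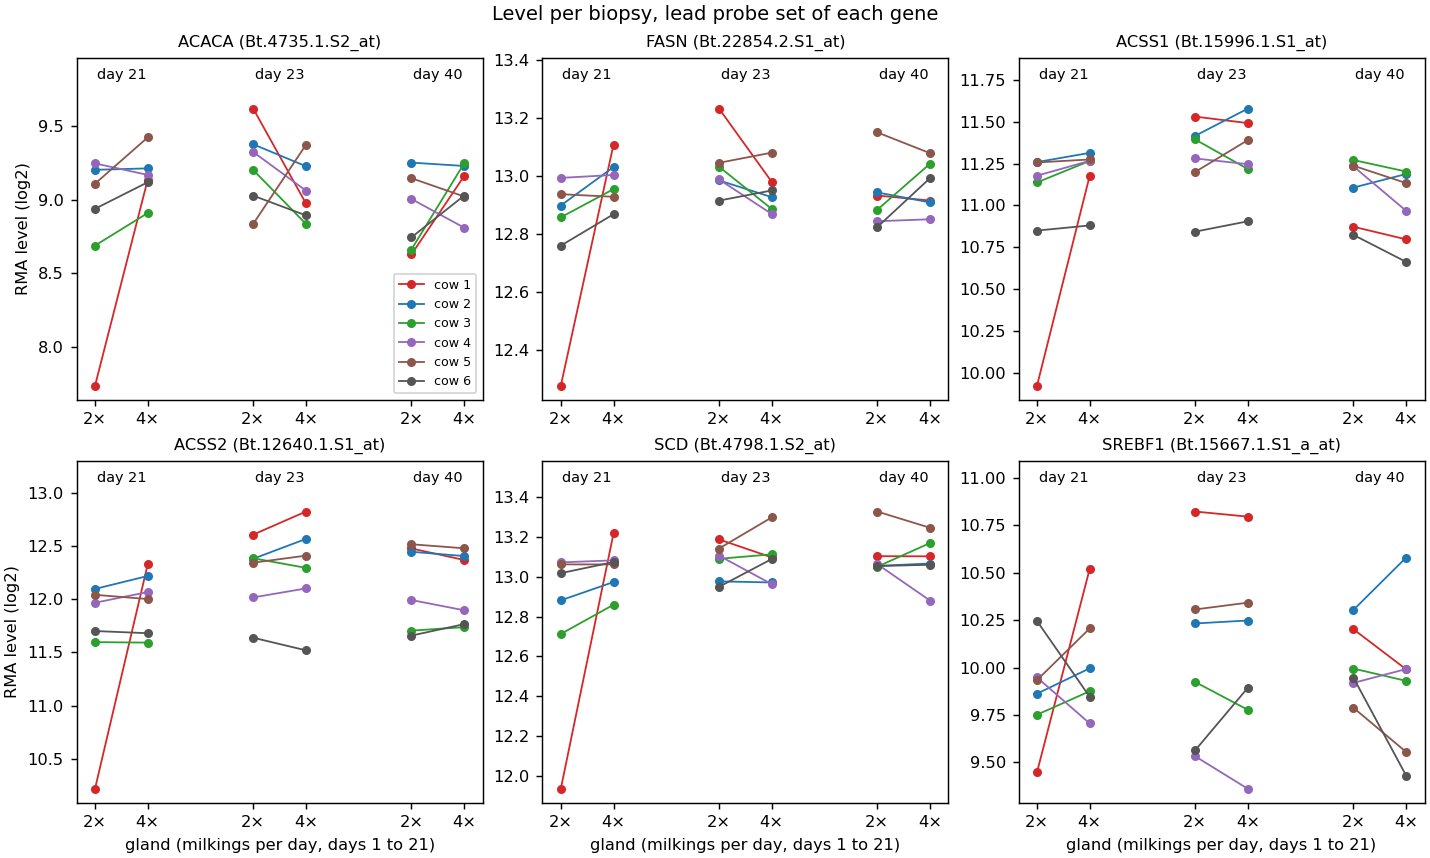
Level of each gene in every biopsy (log2 RMA value, 1 panel per gene on its own scale, highest-mean probe set), with the 2× and 4× glands of a cow on a day joined by a line and cows told apart by colour. The 2× gland of cow 1 on day 21 lies below all other points for ACACA, FASN, ACSS1, ACSS2 and SCD, and most other lines are short.

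In the order of the group means the 2× glands of day 21 were lowest for all 6 genes. The step from that group to the highest was 0.68 for ACSS2, 0.41 for ACACA, 0.37 for ACSS1, 0.33 for SCD, 0.25 for FASN and 0.20 for SREBF1 on the log2 scale. Of the 5 steps between neighbours in each order, 1 exceeded the SD of its within-cow differences in ACACA (2× day 40 to 4× day 23, 0.15 with an SD of 0.13, higher in 5 of 6 cows), and 0 did so in each of the other genes. Without cow 1 the mean of the 2× glands on day 21 moved from 11.60 to 11.88 for ACSS2, from 12.78 to 12.95 for SCD and from 8.82 to 9.04 for ACACA. That group then stayed lowest only for FASN, ACSS2 and SCD. For ACACA the 2× glands of day 40 were lowest (8.96), and for ACSS1 (11.03) and SREBF1 (9.90) the 4× glands of day 40.

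On their highest-mean probe sets, the acetyl-CoA synthetases and SREBF1 had a larger SD of cow means than of 4× minus 2× differences. With the 2× array of cow 1 on day 21 left aside, the mean of ACSS2 over a cow's arrays ran from 11.66 in cow 6 to 12.52 in cow 1. The absolute 4× minus 2× difference had a median of 0.09 and a maximum of 0.22 over the 17 pairs without the day 21 pair of cow 1. The cow means of ACSS1 spanned 0.48 and those of SREBF1 0.72, against median absolute differences of 0.08 and 0.17. For SCD the cow means spanned 0.20 and the median difference was 0.08, and for FASN the figures were 0.15 and 0.07. The SD of the cow means was 0.32 for ACSS2, 0.17 for ACSS1 and 0.27 for SREBF1, and that of the differences 0.10, 0.13 and 0.24. For ACACA, FASN and SCD the differences had the larger SD (0.34, 0.11 and 0.10, against 0.12, 0.06 and 0.08). A cow mean averages 5 or 6 arrays whereas a difference rests on single arrays, so their SDs are unlike measures. Over the same 17 cow-days the 2× and 4× values correlated at r = 0.96 for ACSS2, 0.86 for ACSS1, 0.78 for SREBF1, 0.68 for SCD, 0.37 for FASN and -0.06 for ACACA. These correlations are descriptions, as the points share cows and days. Among the highest-mean probe sets ACACA was the exception: its glands differed by more than 0.25 in 8 of 17 pairs. The further ACACA probe set gave r = 0.26, and the dimmest SREBF1 probe set r = -0.01.

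Whether milking frequency changed these genes was asked by the paired differences. On day 21, the last day of 4× milking, 6 of the 11 probe sets were higher in 4× glands at an unadjusted p under 0.05, where 15.9% of all probe sets passed, and none was lower. They were both of ACACA and those of FASN, ACSS2 and SCD, with 1 of ACSS1. No probe set on the array passed at an adjusted p under 0.05 (limma), on day 21 or on days 23 and 40, and the smallest adjusted p among these genes on day 21 was 0.198. The median difference of the 11 probe sets was 0.25, and that of all probe sets 0.02.

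All of these calls rested on cow 1. In cow 1 ACSS2 was 4.31-fold higher in the 4× gland (2.11 log2 units), while the other 5 cows ranged from -0.04 to 0.12. The fitted difference of ACSS2 was 0.38 (SE 0.18, adjusted p = 0.304, higher in 3 of 6 cows), and without cow 1 it was 0.03 with a 95% interval from -0.10 to 0.17. ACACA was 1.40 in cow 1 and -0.08 to 0.31 in the others. Its fitted difference was 0.34 (SE 0.16, adjusted p = 0.292), and 0.13 without cow 1 with an interval from -0.12 to 0.38. The further ACACA probe set was positive in 6 of 6 cows, at 0.14, 0.15, 0.22, 0.28, 0.91 and 2.10, and without cow 1 its difference of 0.34 (SE 0.18) did not pass (adjusted p = 0.802), with the smallest p of the 11 probe sets in the 5 cows.

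FASN showed a difference of 0.83 in cow 1 and of -0.01 to 0.13 in the others. Its fitted difference was 0.20 (SE 0.09, adjusted p = 0.269), and 0.07 without cow 1 with an interval from -0.07 to 0.20. SCD was 1.29 in cow 1 and between 0.00 and 0.15 in the rest, with a fitted difference of 0.26 (SE 0.12, adjusted p = 0.268) and of 0.06 without cow 1 (-0.08 to 0.20). ACSS1 was higher in 6 of 6 cows, by 1.26 in cow 1 and 0.02 to 0.13 elsewhere, with a fitted difference of 0.26 (SE 0.11, adjusted p = 0.267). Its exact sign-flip permutation p was 0.03125, two-sided, the smallest that 6 cows allow, and was not adjusted for the number of tests. By this test the other genes, on their highest-mean probe sets, gave 0.0625 to 0.5625 on day 21. Without cow 1 the difference of ACSS1 was 0.06 (-0.08 to 0.21), and its further probe set was positive in 3 of 6 cows.

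SREBF1 did not pass on day 21 by any of its 4 probe sets. Its differences in cows 1 to 6 were 1.07, 0.13, 0.12, -0.24, 0.27 and -0.40, so the sign varied among cows. The fitted difference was 0.16 (SE 0.13, adjusted p = 0.573), and -0.02 without cow 1 with an interval from -0.25 to 0.21. In the 5 other cows 0 of the 11 probe sets passed, where 6.53% of all probe sets did, and the upper ends of the intervals lay between 0.11 and 0.31 for 9 probe sets and at 0.38 and 0.72 for those of ACACA. Other cell markers also moved on day 21: the general epithelial list was lower in the 4× gland of 6 of 6 cows (by 1.36 in cow 1 and 0.02 to 0.49 in the others) and the leukocyte list in 6 of 6 (mean -0.18). Within the leukocyte list CD14 went the other way, at 1.92 in cow 1 and 0.12 on average in the others, as did CD3E in cow 1 (0.20). The KRT8 probe set used was dim, with a mean of 5.07. The study lists KRT8 and CSF1R, by other probe sets, among its genes that changed with milking frequency. Secretory markers were 0.44 higher in the 4× gland of cow 1 and -0.04 to 0.06 in the others. The part of these lists in the differences of the 6 genes was not tested.

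**Figure D2:**
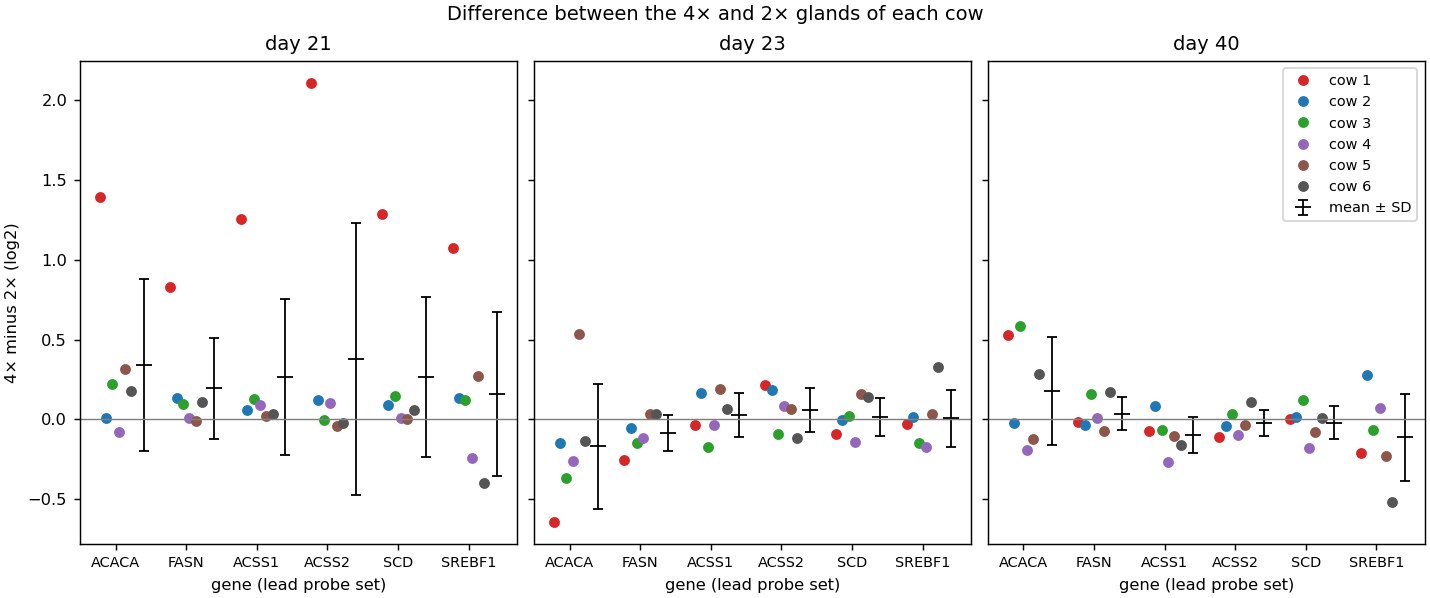
The 4× minus 2× difference (log2) of each gene in each cow on days 21, 23 and 40, as coloured points, with the mean and SD of the 6 cows in black. On day 21 cow 1 lies at 0.83 to 2.11 for all 6 genes, and the other 5 cows lie close to 0 except for SREBF1 and ACACA.

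On day 23, after 4× milking had ended, 0 of the 11 probe sets passed (2.64% of all probe sets did), with 5 positive and 6 negative differences. ACACA was lower in the 4× gland of 5 of 6 cows, at -0.64, -0.15, -0.37, -0.26, 0.54 and -0.13 in cows 1 to 6, and the fitted difference of -0.17 (SE 0.16) did not pass (adjusted p = 1.00). Without cow 1 it was -0.07. The differences of FASN ranged from -0.25 to 0.04, those of ACSS2 from -0.12 to 0.22, those of ACSS1 from -0.18 to 0.19, those of SCD from -0.14 to 0.16 and those of SREBF1 from -0.17 to 0.33. In each gene cows of both signs were present. Cow 1 was within the range of the other cows for ACSS1, SCD and SREBF1, and was the lowest for ACACA and FASN and the highest for ACSS2.

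On day 40, when the glands had been milked alike since day 21, 1 of the 11 probe sets passed, where 20.4% of all probe sets did. It was the dimmest SREBF1 probe set, at 0.38, -0.14, 0.33, 0.53, 0.11 and 0.65 in cows 1 to 6. Its fitted difference was 0.31 (SE 0.11, adjusted p = 0.183, higher in 5 of 6 cows), and 0.29 without cow 1. The other SREBF1 probe sets gave -0.11, 0.01 and -0.00, so the 4 probe sets of the gene disagreed. ACSS1 was lower in the 4× gland of 5 of 6 cows by both of its probe sets, at -0.10 (SE 0.11, adjusted p = 0.611) and -0.16 (SE 0.10, adjusted p = 0.355). Without cow 1 the ACSS1 values were -0.10 and -0.15. The differences of FASN, ACSS2 and SCD were 0.04, -0.02 and -0.02, and each lay within 0.19 of 0 in all 6 cows. ACACA gave 0.53, -0.02, 0.58, -0.19, -0.12 and 0.28 in cows 1 to 6, with a mean of 0.18 that did not pass and of 0.11 without cow 1.

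**Figure D3:**
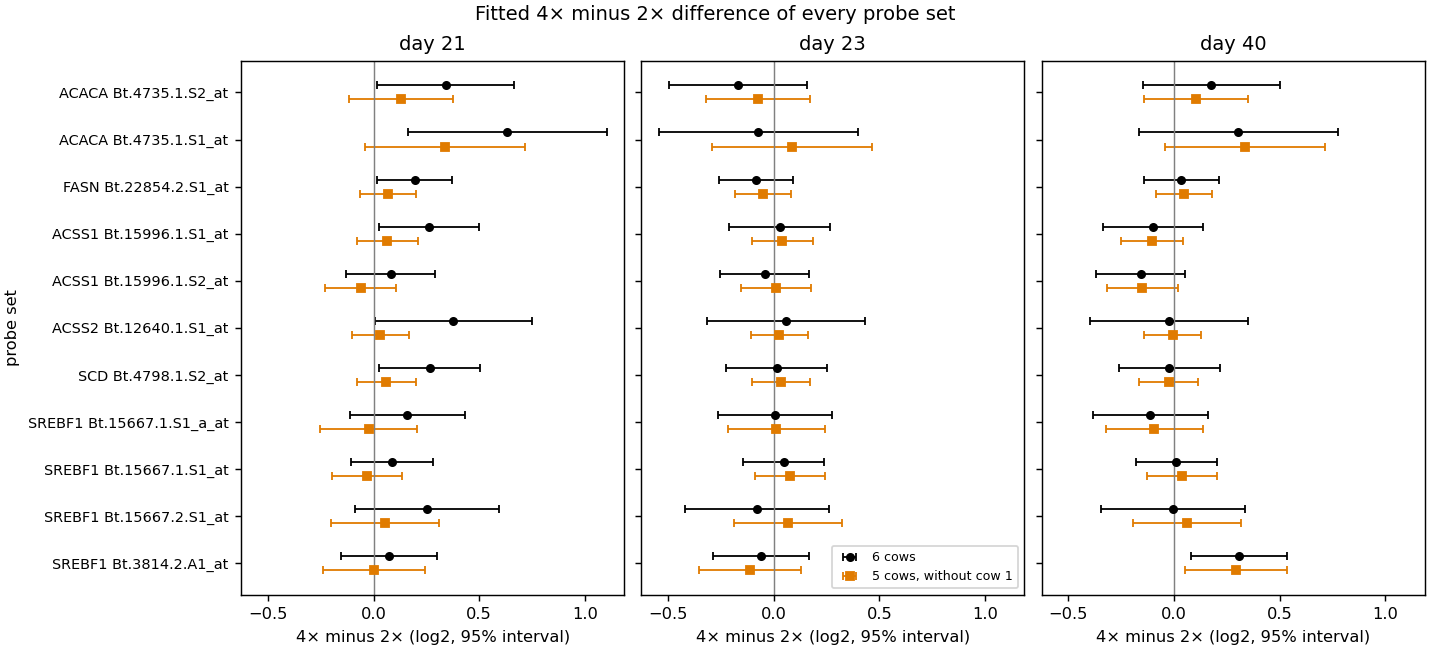
Fitted 4× minus 2× difference (log2) of all 11 probe sets on each day, with 95% intervals, from 6 cows (black circles) and from the 5 cows without cow 1 (orange squares). On day 21 the intervals of 6 probe sets lie above 0 with 6 cows and none does with 5, and on day 40 the dimmest SREBF1 probe set lies above 0 in both.

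The change of the difference from day 21 to day 23 was tested directly. It was negative for 11 of 11 probe sets and passed for 3, where 10.8% of all probe sets did: ACACA at -0.51 (SE 0.22), its further probe set at -0.71 (SE 0.32) and FASN at -0.28 (SE 0.12). The smallest adjusted p was 0.423. Without cow 1 the change was -0.20 for ACACA, -0.25 for its further probe set and -0.12 for FASN. In those 5 cows 0 of 11 passed, where 4.97% of all probe sets did. Because the change uses the day 21 differences, its sign is not a separate result from theirs.

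Changes between days were also fitted within each gland type. These fits include cow but not cow by day, so their p rests on a spread pooled over all groups. It does not measure the spread of a step among cows. In 2× glands 8 of the 11 probe sets were higher on day 23 than on day 21 (16.1% of all probe sets passed in either direction), by 0.62 for ACSS2 (SE 0.21), 0.41 for ACACA, 0.34 for ACSS1, 0.30 for SCD and 0.25 for FASN, and also by 2 further probe sets of SREBF1. In 4× glands 0 passed (3.8% did). Without cow 1 the 8 calls became 1, that of ACSS2. In the 5 other cows ACSS2 passed in both gland types, and rose by 0.27 in 2× glands and by 0.27 in 4× glands, with 4 of 5 cows higher in each. The SD of that step among the 5 cows was larger than its mean, at 0.33 in 2× glands and 0.34 in 4× glands. Both gland types came from the same cows, so they are not separate results. The fore glands of cow 3 held the largest of these steps, 0.79 in the 2× gland and 0.70 in the 4× gland, and day and gland position cannot be told apart here.

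From day 21 to day 40, both of rear glands, 2 probe sets were higher in 2× glands (6.79% of all passed), those of ACSS2 by 0.53 (SE 0.21, adjusted p = 0.610) and of SCD by 0.33 (SE 0.11, adjusted p = 0.511). Without cow 1 ACSS2 no longer passed at 0.18, and SCD still passed at 0.16, higher in 4 of 5 cows. In 4× glands 0 passed (8.68% did). ACSS1 was nevertheless lower on day 40 in the 4× gland of 6 of 6 cows, by 0.06 to 0.38, with a fitted change of -0.20 (SE 0.13, adjusted p = 0.662). Its exact sign-flip permutation p was 0.03125, not adjusted for the number of tests, and the other genes gave 0.1875 to 0.8125. Without cow 1 the fitted change of ACSS1 was -0.17 and passed at the unadjusted threshold. No adjusted p passed for any of these genes in the changes between days.

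The 6 genes varied together across arrays, and much of that rested on the same array. Over 36 arrays the 15 pairs of genes had Pearson correlations from 0.34 to 0.86 with a median of 0.71, and over the 35 others the median was 0.44. Over the 18 paired differences the median was 0.79, and over the 17 without the day 21 pair of cow 1 it was 0.21, from -0.23 to 0.72. The pair that kept the highest value was ACACA with FASN (0.72), followed by ACSS1 with SCD (0.60), FASN with SCD (0.58) and ACACA with SCD (0.56). ACSS2, whose differences between glands were small, had 0.34 with ACSS1, -0.07 with SCD, -0.12 with FASN, -0.20 with SREBF1 and -0.23 with ACACA. The arrays share cows and days, so these values are descriptions.

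Among 7649 genes with a single symbol and a mean of at least 5, the level of ACSS2 over 36 arrays was most like those of LPCAT3 (r = 0.89), HSD17B10 (0.87) and ALDOC (0.86), and LPCAT3 stayed first over 35 arrays (0.82). SCD was most like DNAJC12 (0.94), FABP3 (0.92) and CHPT1 (0.91), and DNAJC12 stayed first (0.81). FASN was most like FABP3 (0.88), GPAM (0.88) and CD36 (0.87), with GPAM first over 35 arrays (0.72). ACACA was most like TMEM120B (0.89), SLC38A3 (0.86) and CMTM6 (0.85), and TMEM120B stayed first (0.76). For ACSS1 the genes were NCOA4 (0.88), MFSD14B (0.83) and NEBL (0.82), with NCOA4 first in both (0.78 over 35 arrays). For SREBF1 they were RTN4 (0.70), RBM18 (0.68) and RAB11FIP5 (0.66), and over 35 arrays ANKHD1 came first (0.71).

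The genes that work beside these enzymes were taken from 4 lists. Of the companions that supply citrate, NADPH, acetyl units or ketone bodies, 18 of 22 were measured, and 4 were higher and 0 lower in 4× glands on day 21 at an unadjusted p under 0.05, where 15.9% of all probe sets passed: PDHA1, a subunit of pyruvate dehydrogenase, by 0.19 (SE 0.07), ACO1, the cytosolic aconitase, by 0.36 (SE 0.13), BDH1, which interconverts ketone bodies, by 0.58 (SE 0.22), and IDH1, the cytosolic NADP-dependent isocitrate dehydrogenase, by 0.28 (SE 0.12). The difference of BDH1 was 2.61 in cow 1 and 0.17 on average in the others. Without cow 1 0 of the 18 passed, where 6.53% of all probe sets did. The list median was 0.04, against 0.02 for all probe sets. On day 23 0 passed (2.64% of all probe sets did). On day 40, when 20.4% of all probe sets passed, ME1, the malic enzyme, was higher by 0.23 and ACAT2 by 0.15, while CS, the citrate synthase, and ACLY, which cleaves citrate, were lower, at -0.17 and -0.32. Without cow 1 ME1 (0.19) and CS (-0.16) passed on day 40, and ACLY (-0.16) and ACAT2 (0.12) no longer did.

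Among the enzymes that lengthen or desaturate chains after FASN, 8 of 14 were measured. At an unadjusted p under 0.05, 0 were higher in 4× glands on days 21, 23 and 40. The numbers lower were 1, 1 and 2, where 15.9%, 2.64% and 20.4% of all probe sets passed. ELOVL5, an elongase of polyunsaturated chains, was lower in 4× glands on day 21 (-0.45, SE 0.16, adjusted p = 0.200, lower in 4 of 6 cows) and on day 40 (-0.40, SE 0.16, adjusted p = 0.204, lower in 6 of 6 cows). Without cow 1 the values were -0.25, which did not pass, and -0.31, which did. ELOVL6 passed on days 23 and 40 at -0.19 and -0.22, but its mean of 3.31 is near background, and without cow 1 the day 40 value was -0.13 and did not pass. SCD5, another stearoyl-CoA desaturase, was lower in 6 of 6 cows on day 40 without passing (-0.16, adjusted p = 0.267). The list median was 0.10 on day 21, -0.07 on day 23 and -0.02 on day 40.

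The regulators of SREBP-1 and other lipogenic transcription factors had 22 of 25 genes measured. On day 21 4 were higher and 1 was lower in 4× glands, where 15.9% of all probe sets passed. MBTPS2, the protease that makes the second cut of SREBP-1, was higher in 6 of 6 cows (0.27, SE 0.09, adjusted p = 0.184) and PPARG, a nuclear receptor of lipid metabolism, in 5 of 6 (0.32, SE 0.11, adjusted p = 0.194). RXRA, its partner, was lower (-0.18, SE 0.08, adjusted p = 0.272). Without cow 1 MBTPS2 (0.20) and PPARG (0.26) still passed, and 0 were lower, where 6.53% of all probe sets passed. On day 40 3 were higher and 4 lower, where 20.4% of all probe sets passed. MLXIPL, the carbohydrate-responsive factor ChREBP, was higher in 6 of 6 cows (0.30, SE 0.10, adjusted p = 0.180), and MBTPS1, the protease of the first cut, was lower in 6 of 6 (-0.23, SE 0.08, adjusted p = 0.186). RXRA was lower on this day too (-0.23, SE 0.08, adjusted p = 0.182, higher in 1 of 6 cows). Without cow 1 2 were higher and 1 lower on day 40, where 12.9% of all probe sets passed. MLXIPL was then at 0.27 and MBTPS1 at -0.19, both still past the threshold, whereas RXRA was at -0.18 and no longer passed. On day 23 0 passed (2.64% of all probe sets did), and the list medians were 0.03, -0.02 and 0.00 on days 21, 23 and 40.

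AMP-activated protein kinase phosphorylates and inhibits ACACA, and 7 of 10 genes of the kinase and other factors that act on ACACA were measured. On day 21 2 were higher and 0 lower in 4× glands at an unadjusted p under 0.05, where 15.9% of all probe sets passed. PRKAB1, a regulatory subunit, was higher in the 4× gland of 5 of 6 cows on day 21 (0.29, SE 0.09, adjusted p = 0.181) and its difference then fell by 0.39 to day 23 in 6 of 6 cows (adjusted p = 0.392). PRKAA2, a catalytic subunit, was higher in 6 of 6 cows on day 21 (0.47, SE 0.13, adjusted p = 0.180), though its mean of 4.20 is near background. Both passed on day 21 without cow 1, at 0.21 and 0.44, where 6.53% of all probe sets did. On day 40, where 20.4% of all probe sets passed, PRKAA2 was higher by 0.30 and SIRT1, a deacetylase, lower (-0.29, SE 0.12, adjusted p = 0.204). Without cow 1 PRKAA2 was 0.15 on day 40 and no longer passed, and SIRT1 was -0.29 and did, as did 12.9% of all probe sets. On day 23 0 of the 7 passed (2.64% of all probe sets did). No gene of the 4 lists passed at an adjusted p under 0.05 in the paired comparisons.

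**Figure D4:**
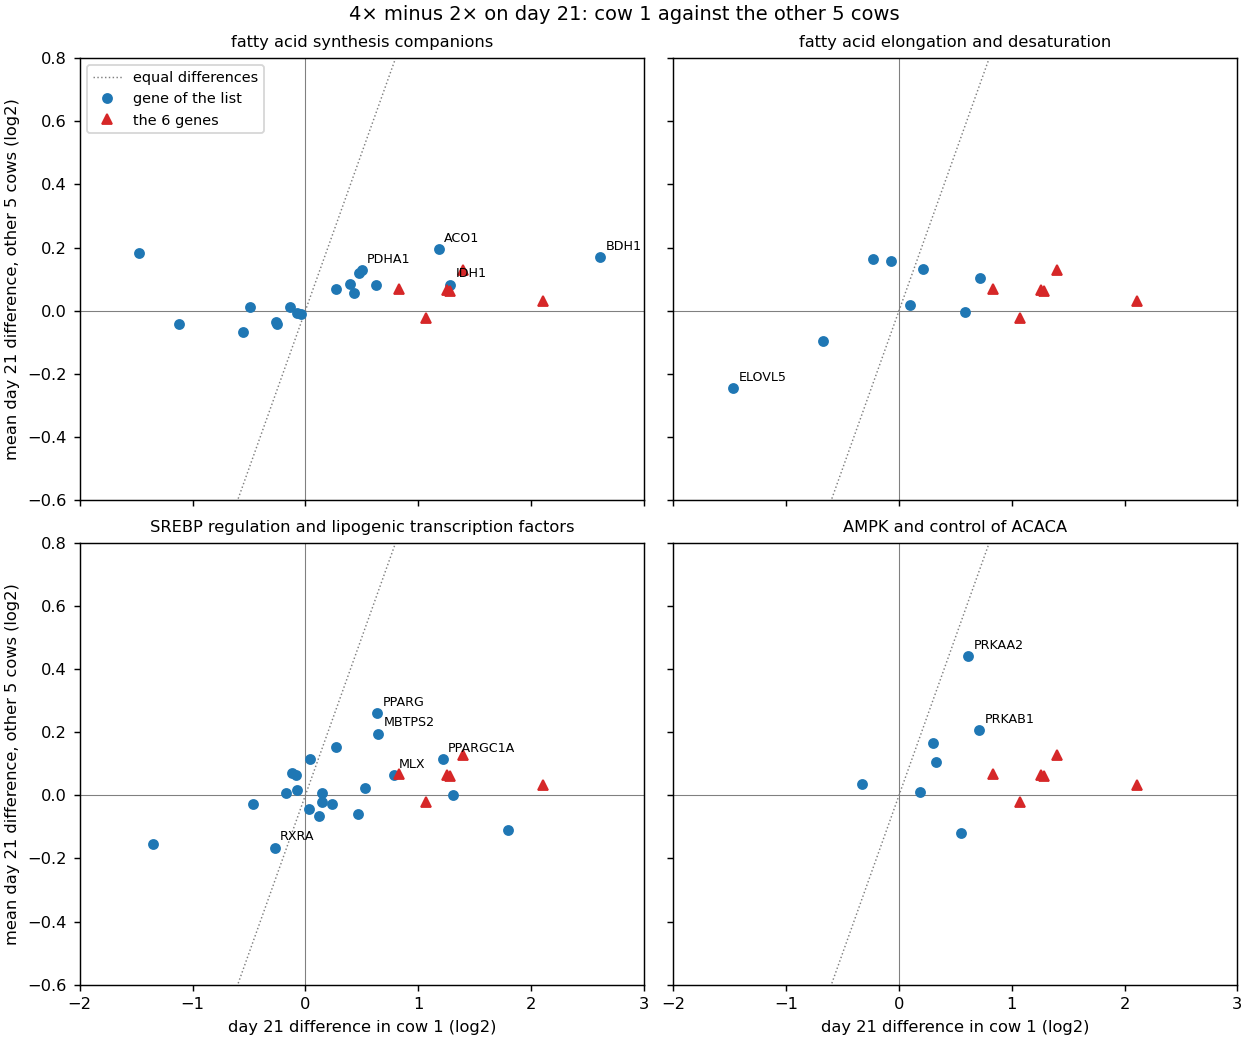
For each gene of the 4 lists (blue circles), the day 21 difference (4× minus 2×, log2) in cow 1 on the horizontal axis against the mean of the other 5 cows on the vertical axis, with the 6 fatty acid synthesis genes as red triangles in every panel, genes past an unadjusted p of 0.05 named and a dotted line of equal differences; the axes have different scales. The 6 genes lie far to the right and near 0 on the vertical axis, whereas PRKAA2 lies at 0.61 and 0.44.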

How the data were processed

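Values were the deposited log2 values of 24128 probe sets on 36 GeneChip Bovine Genome Arrays. The authors made them with the Robust Multichip Average (background correction, normalization across arrays and summary to a log2 value per probe set; version not given in the sources used here), which can compress differences of bright probe sets. Array medians lay between 6.04 and 6.15. Here 112 control probe sets were left out. Groups and cows came from the labels. Glands were paired by cow: after removal of group means, 18 of 18 pairs correlated above 0.1 (0.242 to 0.665).

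The 18 within-cow differences entered lmFit and eBayes of limma (version 3.58.1, R version 4.3.3), with a mean for each day and 1 shared spread. Changes within gland types came from all 36 arrays and included cow. Adjustment followed Benjamini and Hochberg over 24016 probe sets, and a call is an unadjusted p under 0.05 unless named as adjusted. The fits were tested on simulated data. The exact sign-flip permutation test was two-sided with 64 flips. The study's methods name no test of its arrays. Replicates are cows.

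Symbols came from the array's annotation (single for 13318 probe sets, several for 86, none for 10724), and 6 of 6 genes matched RefSeq (ARS-UCD2.0) by gene ID. The genes and lists were chosen with earlier results of these data known. Named are the 6 genes by every probe set and, of each list, genes among the 3 with the smallest p in a comparison. For likeness the 3 genes with the highest Pearson r were named. Alternatives were other pairing terms, spread, moderation, weights, a filter on dim probe sets, 2 scalings, the sign-flip test, other probe sets, each cow left out and, chosen after seeing the data, the day 21 pair of cow 1 left out.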

Additional observations from a re-analysis of the deposited data

Results flagged for a closer look

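Of 99 sets of 6 values (levels of the 11 probe sets in 6 groups and their differences on 3 days), 19 had a highest or lowest value far from the rest by Dixon's criterion, which chance alone gives for about 1 in 20 sets, and 13 of the 19 were of cow 1 on day 21. These 13 all come from 1 array pair. In the 2× gland of cow 1 on day 21 the levels were lowest and apart for ACACA (7.74), FASN (12.28), ACSS1 (9.92), ACSS2 (10.22) and SCD (11.93). The 4× minus 2× differences of that cow and day were highest and apart for ACACA (1.40), FASN (0.83), ACSS1 (1.26), its further probe set (0.79), ACSS2 (2.11), SCD (1.29) and the second (0.69) and the third (1.25) SREBF1 probe set by level. The other values apart from their group were those of cow 5 in 2× glands on day 40, highest for FASN (13.15) and SCD (13.33), of cow 6 in 4× glands on day 21, lowest for ACSS1 (10.88), of cow 3 in 2× glands on day 40, highest for the further ACSS1 probe set (10.56), and, for the third SREBF1 probe set, of cow 1 in 2× glands on day 23 (9.90) and of cow 2 in 4× glands on day 40 (9.19), both highest.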

How the results depend on the processing

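Of the 11 probe sets, 6 passed at an unadjusted p under 0.05 on day 21. With no replicate block the count was 3, with the spread of that day alone 1, with array weights 0, by the sign-flip test 2 and without the day 21 pair of cow 1 0. Leaving out each cow gave 0 to 6, the 0 being without cow 1. On day 40 (1 passed) scaling to reference genes and the sign-flip test gave 0, leaving out the day 21 pair of cow 1 gave 2, and leaving out each cow 0 to 1 (0 without cow 6). For the change from day 21 to day 23 (3 passed) the separate spread, array weights, the sign-flip test and leaving out the day 21 pair of cow 1 gave 0, no moderation gave 1, and leaving out each cow 0 to 3 (0 without cow 1 or 3, 1 without cow 6). In 2× glands the sign-flip test gave 0 from day 21 to 23 and 0 to day 40, and leaving out each cow 1 to 8 and 1 to 3. In 4× glands the sign-flip test gave 1 to day 40, and leaving out each cow 0 to 1 for both. The replicate block as a fixed or random term, median centring, the trend and the filter on dim probe sets kept all counts within 1.5 times. The cause of these shifts was not tested.

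Signs turned for small differences. Scaled to reference genes these were FASN on day 40 (-0.011), and ACSS1 (-0.0016), SCD (-0.016) and SREBF1 (-0.023) on day 23. With array weights it was SREBF1 on day 23 (-0.0066). Without the day 21 pair of cow 1 they were SREBF1 on day 21 (-0.023) and the change of SREBF1 (0.029) and ACSS2 (0.026). By further probe sets they were ACSS1 (-0.043) and SREBF1 (-0.080 and -0.059) on day 23 and SREBF1 on day 40 (0.011 and 0.31). With each cow left out the range was -0.0050 to 0.069 for ACSS1, -0.015 to 0.045 for SCD and -0.059 to 0.042 for SREBF1 on day 23, -0.049 to 0.011 for SCD on day 40, -0.023 to 0.27 for SREBF1 on day 21 and -0.33 to 0.035 for its change. From day 21 to 40 it was -0.075 to 0.15 for ACACA and -0.0015 to 0.22 for ACSS1 in 2× glands, and -0.051 to 0.017 for FASN and -0.011 to 0.092 for SCD in 4× glands. From day 21 to 23 it was -0.036 to 0.38 for SREBF1 in 2× glands and -0.0013 to 0.12 in 4× glands. A planned search for promoter motifs was not run.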
